A study of Mus musculus with 2 samples.

Results

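The genes described here take up vitamin A and its carotenoid precursors in the intestine and oxidise retinol to retinoic acid. The set holds 9 genes, chosen by name from this pathway with earlier results of these data known: Scarb1, Bco1, Rbp2, Lrat, Adh1, Aldh1a1, Aldh1a2, Aldh1a3 and Aldh1a7. The array names 24061 genes in all. The 9 were covered by 10 of its 55681 non-control probes, with Scarb1 on 2 probes and Bco1 under its older name Bcmo1.

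RNA was taken from epithelial cells of intestinal segments of wild-type male mice. For 2 h the segments had been in 0.5 µM cholic acid (a bile acid the liver makes from cholesterol) or in vehicle, which was 0.05% DMSO with 0.25% ethanol. Age, strain, gut position and the number of mice are not in the labels, and the solvent is stated for the vehicle alone. Each condition was measured once, on a 1-colour Agilent array of 60-base probes, so the differences below carry no replicate check and no test of the conditions was possible. The series looks for candidate genes that bile acids regulate through PPARα, a nuclear receptor for fatty acids.

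Dietary carotenoids enter enterocytes through the scavenger receptor Scarb1 and are cleaved to retinaldehyde by Bco1. Retinol and retinaldehyde are carried by the cellular retinol-binding protein Rbp2, and Lrat esterifies retinol for export in chylomicrons. Adh1 can oxidise retinol to retinaldehyde, and the dehydrogenases Aldh1a1, Aldh1a2 and Aldh1a3 oxidise retinaldehyde to retinoic acid, the ligand of the retinoic acid receptors. Aldh1a7 is a close rodent relative of Aldh1a1.

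No more than 1 probe of each of the 9 genes could be measured on both arrays. A stretch of 30 bases is shown for 6 of the probes on which the results turn, with the hexamer AATAAA, the usual polyadenylation signal, in capitals where the probe held it. It was present in 3 of the 10 probes and in 10.1% of all non-control probes.
Bco1: cttcatggtttatttatcccagatgcagac
Rbp2: ctggaacatgtgcagagttctctgccagtt
Lrat: tgattactgcaaAATAAAttaactttacaa
Adh1: tttacctttcgagaaAATAAAtgaagcatt
Aldh1a1: gactagttgtgacttaagctctgtccctca
Aldh1a7: ttccttgaactatgtaccatgcatgataac

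On mm9, the build of the array's annotation, the whole probes lie at chr8:119656996-119657055 on the plus strand (Bco1) and chr9:98410012-98410071 on the plus strand (Rbp2). The Lrat probe lies at chr3:82696805-82696864 on the minus strand and the Adh1 probe at chr3:137952821-137952880 on the plus strand. The Aldh1a2 probe lies at chr9:71143931-71143990 on the plus strand and the Aldh1a3 probe at chr7:73535785-73535844 on the minus strand. Exon and UTR annotation of that build was not used here. Aldh1a1 and Aldh1a7 are neighbours in the genome, with 0 protein-coding genes between them in the RefSeq annotation. Their probes, at chr19:20717764-20717823 on the plus strand and chr19:20767553-20767612 on the minus strand, lie 49.7 kb apart. The probes themselves differ: the longest run they share is 8 bases, and the best alignment without gaps matched 21 of 51 bases. None of the 6 probes shown shared a run of 16 bases with any other probe of the array.

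Of the 9 genes, 7 were well above background on both arrays. Between them, 3 were at least 2-fold lower with cholic acid (Scarb1, Lrat and Adh1), 1 was at least 2-fold higher (Aldh1a7) and 3 lay within 2-fold (Rbp2, Aldh1a1 and Aldh1a3). Among the 12940 genes that could be compared this way, 2.05% were at least 2-fold lower and 6.57% at least 2-fold higher. The split turns with the scaling. Of the genes at least 2-fold apart, 76.2% were on the higher side here, 44.4% with the percentile taken over all probes and 51.5% in the authors' deposited table. Bco1 was well above background with vehicle alone, and Aldh1a2 on neither array. Values were scaled to the 75th percentile of the probes well above background on both arrays, a signal of 1060 with vehicle and 741 with cholic acid. The unscaled signals given below are therefore lower overall on the cholic acid array, and the differences are not.

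**Figure D1:**
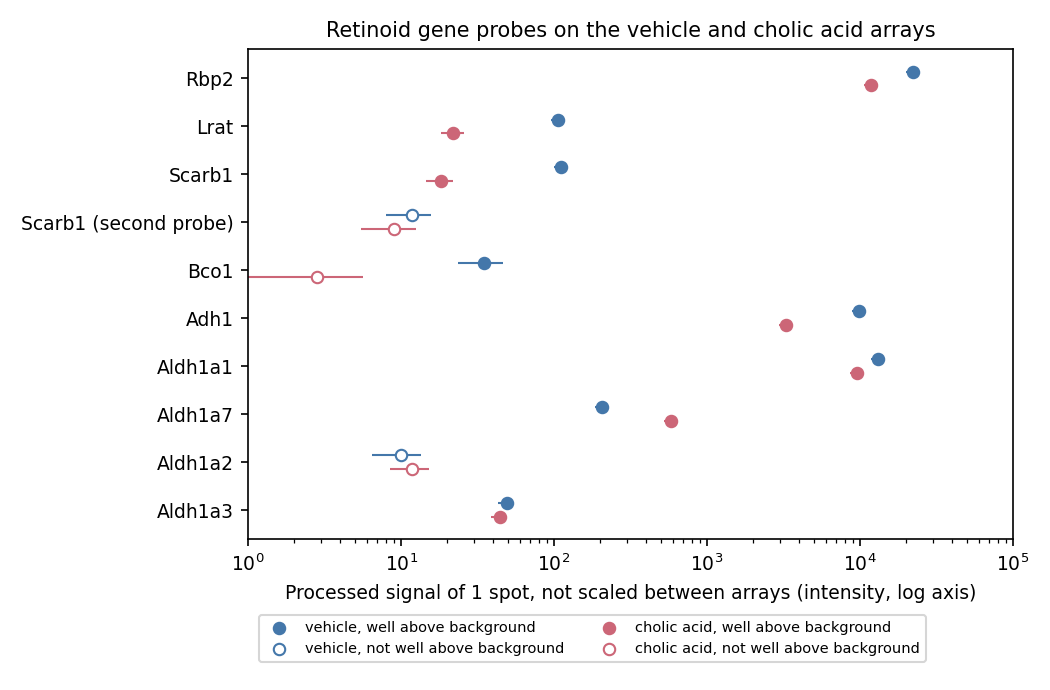
Processed signal of the single spot of each of the 10 probes (log axis, intensity, not scaled between arrays) on the vehicle and cholic acid arrays, with bars for the scanner software's own error of that spot. Open points were not well above background, and the bar of Bco1 with cholic acid, 2.81 ± 2.83, runs off the left edge. Of the probes well above background on both arrays, Scarb1, Lrat and Adh1 show the widest gaps towards lower signal, and Aldh1a7 is the one probe well above background whose signal was higher with cholic acid.

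Scarb1, the uptake receptor, was lower with cholic acid on the 1 probe that could be measured. This probe gave a signal of 112 ± 11.7 with vehicle and 18.2 ± 3.60 with cholic acid, where the error is the scanner software's estimate for 1 spot. After scaling this was 4.30-fold lower with cholic acid, a log2 difference of -2.11. Of the 12940 genes, 11 had a lower difference, and so did 1 of the 1000 genes nearest to it in signal. Those neighbours had a median difference of 0.30 with a robust SD (scaled median absolute deviation) of 0.56. The other Scarb1 probe, at chr5:125761540-125761599, stayed short of the background limit on both arrays, at 11.8 ± 3.82 and 9.02 ± 3.58, so the result rests on 1 of 2 probes. After scaling, its log2 values were -6.49 with vehicle and -6.36 with cholic acid. In the authors' deposited table it fell from 11.79 to 8.765, so no direction can be given for that probe. When the looser positive and significant flag let that probe into the mean, Scarb1 differed by -0.99 and no longer reached 2-fold.

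Bco1, the carotenoid-cleaving oxygenase, was dim. Its signal was 34.9 ± 11.3 with vehicle and 2.81 ± 2.83 with cholic acid, against medians of 3.33 and 3.10 among the 308 negative control spots of each array. The brightest negative control spot on the vehicle array had a signal of 39.6, above that of Bco1. Since Bco1 was not well above background with cholic acid, only a bound can be given. It was at least 1.88-fold lower there, taking the lowest signal of any probe well above background as the limit. Some probes brighter than that limit failed the flag, such as Cyp26b1 at 16.8 with cholic acid. The bound also leaves out the error of 11.3 of the vehicle signal. This bound and those below are therefore nominal. A bound of at least 2-fold lower was found for 15.9% of the 603 genes that were well above background with vehicle alone, and Bco1 fell short of it. In 6 of 7 alternative settings its bound passed 2-fold, and with normexp background correction no fold could be given.

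Rbp2, the retinol carrier of enterocytes, was bright on both arrays. Its signal was 22300 ± 2230 with vehicle and 11900 ± 1190 with cholic acid. The scaled difference was -0.39, or 1.31-fold lower, within the robust SD of 0.38 around the median of -0.08 of its nearest genes. Among those 1000 neighbours 189 had a lower difference, so Rbp2 did not stand apart from genes of like signal.

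Lrat, which forms retinyl esters, was lower by more than its neighbours' spread. Its signal with cholic acid was 22.0 ± 3.68, which was 0.206 times the vehicle signal before scaling. The scaled difference was -1.77, or 3.40-fold lower, where the 1000 nearest genes had a median of 0.28 and a robust SD of 0.54. Of these neighbours 8 had a lower difference, and of all 12940 genes 24 did.

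Scarb1 and Lrat were both dim with cholic acid, at 18.2 and 22.0, where the lowest signal of any probe well above background on that array was 13.0. With normexp background correction, which adds an offset of 50 to every signal, their differences shrank to -0.60 and -0.51 and neither reached 2-fold.

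Adh1, the class I alcohol dehydrogenase, was lower from a bright signal. It gave 9910 ± 991 with vehicle and 3280 ± 328 with cholic acid. The scaled difference was -1.08, or 2.11-fold lower, against a median of -0.10 and a robust SD of 0.38 in the 1000 nearest genes. Of these, 17 had a lower difference. Adh1 was at least 2-fold lower in all 8 alternative settings of scaling, background correction and spot filter, between -1.31 and -1.07. The setting with no spot left out returned the main value, so it was no separate check. The authors' values and quantile normalization were nearly the same, at -1.072 and -1.074.

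**Figure D2:**
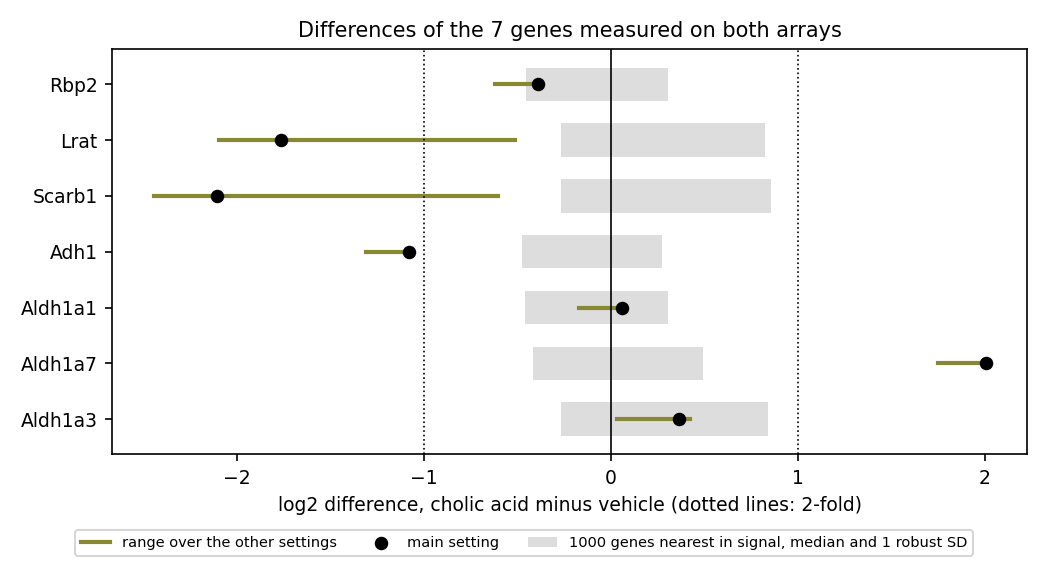
Log2 difference (cholic acid minus vehicle) of the 7 genes well above background on both arrays: points are the main setting, lines the range over the alternative settings, and grey bars the median and 1 robust SD of the 1000 genes nearest in signal. Lrat, Scarb1, Adh1 and Aldh1a7 lie outside their grey bars, while Rbp2, Aldh1a1 and Aldh1a3 lie inside them.

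Of the 4 retinaldehyde dehydrogenase genes and relatives, only Aldh1a7 was at least 2-fold apart. Aldh1a1, the main cytosolic form in many epithelia, gave 13100 ± 1310 with vehicle and 9550 ± 955 with cholic acid. Its scaled difference was 0.06, and its sign turned in 5 of 8 alternative settings, so no direction can be given. Its neighbour Aldh1a7 gave 206 ± 20.8 with vehicle and 579 ± 57.9 with cholic acid, 4.02-fold higher after scaling. That log2 difference of 2.01 was exceeded by 85 of all 12940 genes and by 3 of its 1000 nearest genes, whose robust SD was 0.45. Aldh1a7 was higher by at least 2-fold in all 8 alternative settings, between 1.75 and 2.01, where leaving no spot out again returned the main value. The software's error of these 2 differences was 0.20 for Aldh1a1 and 0.21 for Aldh1a7 on the log2 scale, which covers single spots and not the spread between separate samples.

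The other 2 retinaldehyde dehydrogenases were dim. Aldh1a3 gave 49.0 ± 5.72 with vehicle and 44.2 ± 5.21 with cholic acid, a scaled difference of 0.37 where its nearest genes had a median of 0.29 and a robust SD of 0.55. It did not stand apart from them. Aldh1a2 had 11.8 ± 3.35 with cholic acid, 1.18 times its vehicle signal before scaling, and passed the background limit on neither array, so no scaled difference is given.

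**Figure D3:**
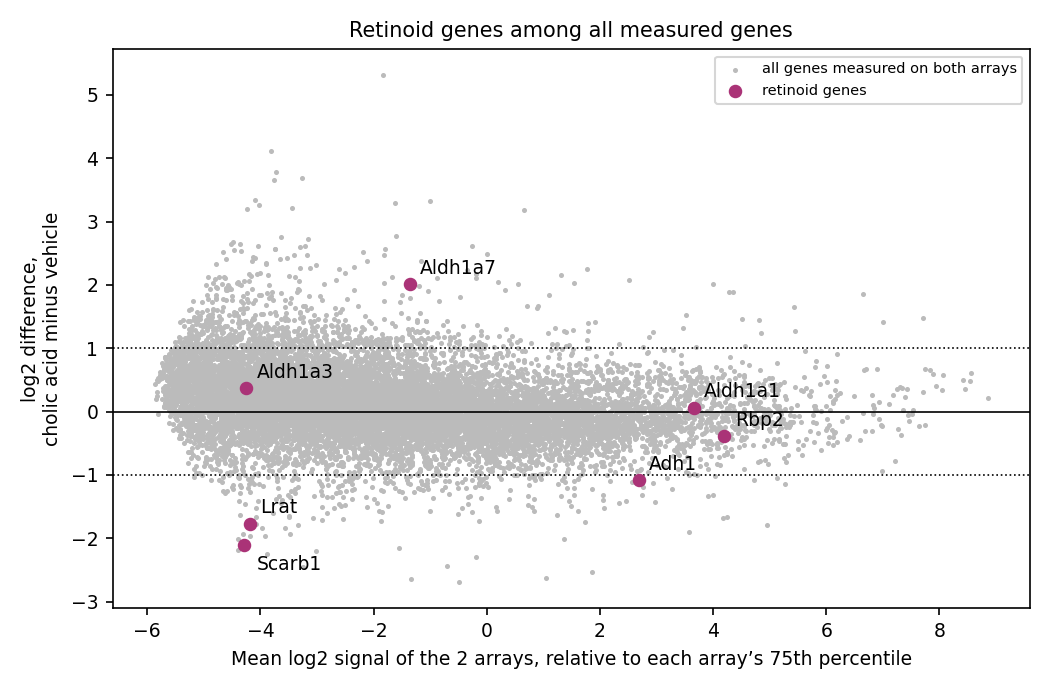
Log2 difference (cholic acid minus vehicle) against the mean log2 signal of the 2 arrays, relative to each array's 75th percentile, for the 12940 genes measured on both arrays (grey), with the 7 measured retinoid genes marked. Scarb1 and Lrat lie at the lower edge of the dim genes, Adh1 below -1 among the bright genes, and Aldh1a7 at 2.01 above most genes of its signal.

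The authors' own processed values have equal quantiles on both arrays. In the authors' deposited table Scarb1 went from 101.5 with vehicle to 18.7 with cholic acid and Lrat from 97.7 to 22.9. Adh1 went from 8471 to 4030 and Rbp2 from 19444 to 14207. In the authors' deposited table Aldh1a7 stood at 182.4 with vehicle and 696.7 with cholic acid, and Aldh1a1 at 11356 and 11298.

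The rest of the pathway was taken from a list of 75 further genes, also chosen with earlier results of these data known. The shares below therefore describe that list and are no test. Of the 75 genes, 74 were on the array and 54 were measured on both arrays. Of the 54, 5 (9.26%) were at least 2-fold higher and 4 (7.41%) at least 2-fold lower, against 6.57% and 2.05% of all measured genes. The median was -0.28 against 0.08 for all genes, and 38 (70.4%) lay below 0, against 42.5% of all genes. The shares of all genes given here and below belong to the main setting and are not matched for signal. The 1000 genes nearest in signal had a median of -0.08 around Rbp2 and 0.30 around Scarb1. With the percentile taken over all probes, the median of all genes was -0.145.

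Genes that interconvert retinol and retinaldehyde had negative differences in 17 of 17 measured cases, with a median of -0.42, and 3 were at least 2-fold lower. Of the 17, only Rdh13 changed sign in an alternative setting, to 0.13 with normexp against -0.40. Adh4, the class II alcohol dehydrogenase and a relative of Adh1, was 2.48-fold lower, from 222 with vehicle to 62.5 with cholic acid. The retinol dehydrogenase Rdh5 was 2.34-fold lower, from 789 to 236, and Dhrs9, another retinol dehydrogenase, 2.43-fold lower, from 80.3 to 23.1. Rdh5 stayed past 2-fold in each of 7 alternative settings, while Adh4 and Dhrs9 did not with normexp. Of the genes of this group seen on 1 array alone, 3 were well above background with cholic acid alone and 0 with vehicle alone. Over all non-control probes, 24201 were well above background with vehicle, 24447 with cholic acid and 22612 on both. The share of all genes seen with cholic acid alone was not taken, so no direction is read from these 3. Sdr16c5, an epidermal-type retinol dehydrogenase, had a signal of 80.9 with cholic acid, against 3.21 with vehicle, and was at least 7.93-fold higher. Adh5 was at least 1.89-fold higher and Rdh19 at least 1.88-fold higher, both from dim signals.

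Genes of fat-soluble uptake and ester handling had a median of -0.53 over 10 measured members, 9 of them below 0. Cd36, a fatty acid and carotenoid scavenger receptor related to Scarb1, was 2.28-fold lower, from 961 to 295. Plb1, a brush border phospholipase with retinyl ester hydrolase activity, was the exception at 9.06-fold higher, where 2 of its 3 probes could be measured and gave log2 differences of 3.12 and 3.24. The bright members of chylomicron export lay below 0 within 2-fold: Dgat1, which also esterifies retinol, at -0.62, and the lipid transfer protein Mttp at -0.53. The carboxylesterases Ces2a and Ces2c lay at -0.50 and -0.53. Pnlip, pancreatic lipase, was well above background with vehicle alone and at least 2.32-fold lower, and lipoprotein lipase Lpl with cholic acid alone and at least 2.72-fold higher.

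Of the carotenoid genes, Isx, the homeobox repressor of Scarb1 and Bco1, differed by -0.48 (5930 with vehicle and 2970 with cholic acid), within 2-fold and in the same direction as Scarb1. Bco2, the other carotenoid-cleaving oxygenase, differed by 0.99 (602 and 835), just short of 2-fold. Isx and Bco2 were singled out after their values were seen. Among binding proteins, Fabp5, which can deliver retinoic acid to nuclear receptors, was 2.39-fold higher (283 and 473), and the median over 6 members was 0.07. The 7 other aldehyde dehydrogenases had a median of -0.01, with the bright Aldh1l1 at -0.01 and Aldh9a1 at -0.10, and 0 were 2-fold apart.

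Receptors for retinoids lay within 2-fold in each of 6 measured cases, with a median of -0.27. Rarb passed the background limit on neither array, and the same held for Cyp26a1 and Cyp26c1, which break down retinoic acid. Cyp26b1 was well above background with vehicle alone, at 23.9 against 16.8, and no fold could be given. Rarb and Cyp26a1 are classical targets of retinoic acid. Among 9 further known targets 6 were measured, and all 6 lay above 0 in the main and 7 alternative settings, with a median of 0.88. Of all measured genes, 57.5% lay above 0 and 6.57% were at least 2-fold higher in the main setting. Ccr9, a gut-homing chemokine receptor, was 2.45-fold higher, the integrin subunit Itgb7 2.10-fold and the transcription factor Hic1 2.04-fold, while Tgm2, tissue transglutaminase, lay at 0.29. In the 7 alternative settings Ccr9 passed 2-fold in 6 and Itgb7 in 4, while Hic1 passed it in 0, with 0.80 to 1.00.

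**Figure D4:**
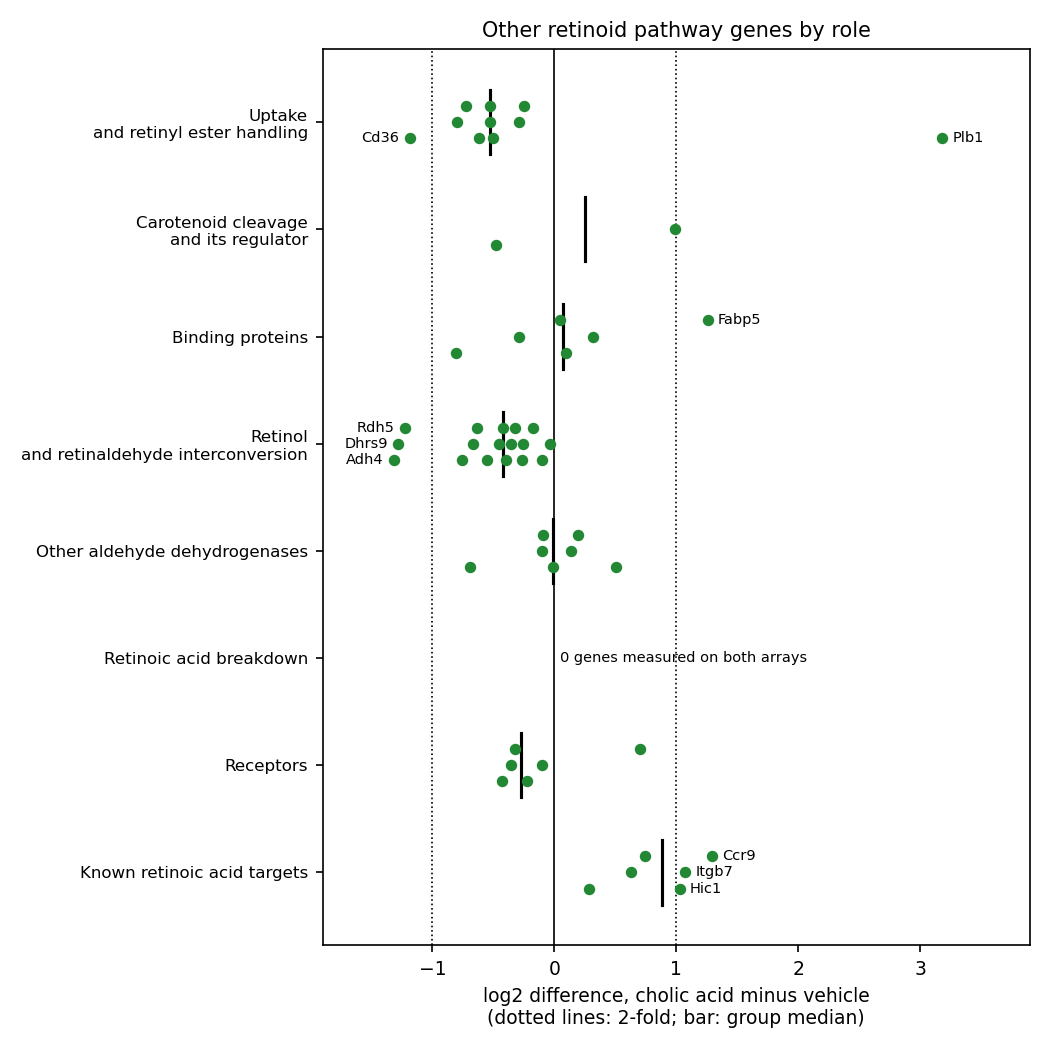
Log2 difference (cholic acid minus vehicle) of the 54 other retinoid pathway genes measured on both arrays, by role, with group medians as black bars and 2-fold limits dotted. All 17 genes of retinol and retinaldehyde interconversion lie below 0 (Rdh13 above it with normexp), and all 6 measured retinoic acid targets lie above it.

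Several of those targets are lymphocyte genes. Of 12 T cell markers measured, 11 lay above 0 and 6 were at least 2-fold higher, against 57.5% and 6.57% of all measured genes. Their median was 0.97. The summed signal of the list was 117195 with vehicle and 126431 with cholic acid, a log2 difference of 0.63 after scaling. The part of lymphocyte RNA in the values of Ccr9, Itga4 and Itgb7 was not tested. In bulk RNA, fewer cells of a type and less RNA per cell cannot be told apart.

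The labels name intestinal epithelial cells. Enterocyte markers were well above background on both arrays in 12 of 12 cases. Their median was -0.45. Of the 12, 9 lay below 0 and 1 was at least 2-fold lower, against 42.5% and 2.05% of all genes, not matched for signal. Their summed unscaled signal was 1228768 with vehicle and 905704 with cholic acid. After scaling, that sum differed by 0.08 on the log2 scale, on the other side of 0 from the median. Vitamin A absorption belongs to the upper small intestine. Proximal markers had a median of -0.27 over 7 measured genes (summed signal 362664 and 180392, a scaled log2 difference of -0.49), with 2 at least 2-fold lower and 1 higher. Fabp1, Lct and Apoa4, which make up most of that sum, are also enterocyte markers, so the lists are not separate. Apoa4, at -1.79, is counted as 2-fold lower in both. The other proximal gene 2-fold lower was Onecut2, at 4.92-fold, and the 1 higher was S100g, at 6.12-fold. Distal markers had a median of 0.88 over 6 (39978 and 31899, a scaled log2 difference of 0.19). Of the 6, 5 lay above 0 and 3 were at least 2-fold higher, against 57.5% and 6.57% of all measured genes. At least 2-fold lower were 0 of the 6. Fabp6, the ileal bile acid-binding protein, led at 39.9-fold higher. Cubn was the 1 below 0, at -0.94 or 1.92-fold lower, and both its probes were negative. Fgf15, also on the distal list, passed the background limit on neither array. How far gut position or cholic acid accounts for the Fabp6 value was not tested. The part of gut position in the values of Scarb1, Lrat, Adh1 and Aldh1a7 was not tested.

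Markers of other cell types had medians on both sides of the 0.08 of all genes. That 0.08 is not matched for signal. The 1000 genes nearest in signal to Lrat, dim like the crypt stem cell genes, had a median of 0.28. Medians were 1.49 over 6 B and plasma cell genes, 0.91 over 6 fibroblast genes, 0.84 over 4 smooth muscle genes, 1.47 over 3 tuft cell genes and 0.56 over 5 enteroendocrine genes. They were 0.08 over 8 dendritic and myeloid genes, 0.30 over 4 crypt stem cell genes, -0.18 over 4 Paneth cell genes and 0.07 over 4 goblet cell genes. The 4 mesothelial markers were not well above background on either array.

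Promoter sequence was read from RefSeq for 7 of the 9 genes, over 300 bases from 250 before to 50 after the start (GRCm38.p6, a later build than that of the probes). Scarb1 and Aldh1a3 had no entry. Both strands were searched for AGGTCA, the half-site of nuclear receptors, and for AGGTCANAGGTCA, the paired form that PPAR and RXR bind as a dimer, with up to 2 mismatches and overlapping the half-site. They were also searched for TAATTA, a homeodomain core. The paired form was found in Bco1 and Rbp2 and in 3.86% of 32851 promoters, and the half-site in the same 2 genes and in 16.3% of promoters. The pair matched with 0 mismatches in Bco1, starting 56 bases before the start, and with 2 in Rbp2, starting 58 bases before it. TAATTA, found in 5.29% of promoters, was in none of the 7. The 100 bases before the start are shown with the paired form in capitals, read on the minus strand relative to the gene, for Bco1 (chr8:117095765-117095864, plus strand) and Rbp2 (chr9:98490437-98490536, plus strand).
Bco1: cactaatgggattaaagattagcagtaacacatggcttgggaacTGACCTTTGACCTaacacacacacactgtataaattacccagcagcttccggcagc
Rbp2: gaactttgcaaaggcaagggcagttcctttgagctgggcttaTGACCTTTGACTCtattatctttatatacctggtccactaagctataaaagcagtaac

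Of the genes with the paired form, Bco1 was lower with cholic acid by its bound, and Rbp2 differed by -0.39. Lrat, Adh1 and Aldh1a7, which were at least 2-fold apart, held neither form in the window searched, and Scarb1 had no sequence to search. A match is a sequence description and shows no binding, and any link between these motifs and the differences was not tested.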

How the data were processed

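RNA was amplified as cRNA and labelled with Cy3, per the labels' protocols. The deposited spot intensities came from the Agilent Feature Extraction software, version 10.7.1.1 per the file headers and 9.5.1.1 per the submitters' processing notes, background-subtracted and detrended within the array. The deposited flags (0 or 1) mark spots well above background, or, more loosely, positive and significant against it. A further table by the authors holds intensities with equal quantiles on both arrays; how it was made is not given in the sources used here.

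Each array had 62976 spots and 0 saturated ones; 124 (vehicle) and 119 (cholic acid) flagged as non-uniform or population outliers were left out. Log2 processed signals were averaged per probe and scaled by the 75th percentile of the 22612 probes (40.6%) that passed this flag on both arrays. Gene names came from RefSeq accessions, then symbols: 27325 probes were named by accession, 3523 by symbol and 546 by synonym, 1807 kept the file's name and 22480 had none. Gene values are means over probes well above background on both arrays. Among 225 probes spotted repeatedly, the SD of a single-spot log2 difference had a median of 0.11, and of 0.18 among those at or below their median signal. The number of arrays limits the precision. Not every probe's sequence and position is reported here.

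The 9 genes, the pathway list and the marker lists were chosen with earlier results of these data known. All members were named; of the pathway list, the 9 genes at least 2-fold apart, the 3 with a bound of at least 2-fold and the 6 brightest, plus others marked or cited as examples after their values were seen. Python 3.11.15, statsmodels 0.14.6 and limma 3.58.1 were used.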

Additional observations from a re-analysis of the deposited data

How the results depend on the processing

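Alternatives were other scalings, normexp background correction, the authors' values, a lowess on probe GC content, other filters, 1.5-fold and 3-fold limits and the brightest probe. Members at least 2-fold lower numbered 3 in the main setting and 1 with normexp, whose offset of 50 exceeds the dim signals of Scarb1 and Lrat. The count of lower members was 2 at 3-fold and 2 with the positive and significant flag, where Scarb1 averaged -0.99 over 2 probes. Without a filter it was 3, with Bco1 in the place of Scarb1. The other alternatives gave 3 lower, and each gave 1 higher. With each setting's all-gene median subtracted, Adh1 ran from -1.28 to -1.01, Scarb1 from -2.38 to -0.79, Lrat from -2.03 to -0.70, Rbp2 from -0.60 to -0.39 and Aldh1a7 from 1.56 to 2.00. Of the alternative values of the 8 genes, before that subtraction, 27 moved by less than the single-spot SD of 0.11 over all repeated probes and 36 by more. That SD was 0.18 among the dimmer of those probes. The 27 include the values with no spot left out, which equal the main values. Of the genes at least 2-fold apart, 0 changed sign. Pathway genes at least 2-fold higher numbered 5, and 3 with the percentile over all probes, median centring, the GC lowess or normexp. They numbered 12 without a filter, 10 with the positive and significant flag, 9 at 1.5-fold and 1 at 3-fold. Those lower numbered 4, and 2 with normexp, 7 without a filter, 12 at 1.5-fold and 0 at 3-fold. Over all genes, 850 were higher and 265 lower. The counts were 432 and 541 with the percentile over all probes, 456 and 429 in the authors' values, 453 and 426 with quantile normalization, and 273 and 104 with normexp. Without a filter they were 2971 and 634, with the positive and significant flag 1953 and 458, at 1.5-fold 2309 and 994, and at 3-fold 178 and 42. Higher genes were 556 with median centring and 505 with loess. Higher genes made up 76.2% of calls in the main setting, 44.4% with the percentile over all probes and 51.5% with quantile normalization. The percentile over all probes, median centring, quantile normalization and loess moved the median of all genes by -0.23 to -0.12. The GC lowess moved it by -0.13 and normexp by 0.10. Values at 1.5-fold, 3-fold and with other filters differ by construction; the cause of the other changes was not tested. No paired analysis was possible because each group has 1 array.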
